A study of Arabidopsis thaliana with 28 samples.

Results

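A set of transcripts in Arabidopsis shoots stood high on the arrays of 0.5 h and 1 h after a short drying treatment, between lower levels at 0.25 h and at 3 h. The set was chosen by its signals: after flooring at 20, the mean of the 4 shoot arrays of 0.5 h and 1 h had to be 60 or more, and at least 2 times both the 0.25 h mean and the 3 h mean of shoots. Of 22746 probe sets, 260 met this rule. The platform annotation gives 1 gene for 101 of them, several for 5 and none for 154, so the named genes below are a part of the set. Because the shoot signals at 0.25, 0.5, 1 and 3 h chose the members, they are given as a description without a test. The tests compare means of the roots and the later shoot arrays, which the rule did not use. Their standard errors come from a fit on all 28 arrays, including the 8 shoot arrays of the rule. The spread of those arrays thus enters every p-value, unless a fit on 1 tissue is named.

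The plants were wild-type Arabidopsis thaliana Col-0, stock N1092, grown on Murashige and Skoog medium with 16 h of light a day, 24 °C and 50% humidity. On day 16, 3 h into the light, all groups received the same treatment: a stream of dry air for 15 min, until 10% of the fresh weight was gone, followed by closed vessels. Total RNA of roots and of shoots was measured on ATH1 arrays for the labelled times of 0.25, 0.5, 1, 3, 6, 12 and 24 h, 2 per tissue and time, which makes 14 groups and 28 arrays. Untreated plants were not among these arrays, so drying, handling and time of day cannot be told apart. Whether the 2 arrays of a group stem from separate cultures is not in the labels, and the p-values below then cover only the spread of these samples, possibly technical. Each sample was bulk root or shoot tissue, in which fewer cells of a type and less RNA per cell cannot be told apart.

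Plants answer water loss, touch and wounding within minutes through calcium and reactive oxygen signals, and a first wave of transcripts follows before most abscisic acid responses. Genes of this wave typically encode transcription factors, receptor-like kinases, calcium-binding proteins, ubiquitin ligases and enzymes that remodel the cell wall. Many of these transcripts are short-lived, so their levels drop soon after transcription slows, while dehydrins and other protective proteins are known to accumulate later.

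The tissue labels matched their markers: 9 photosynthesis probe sets summed to 301 to 887 in roots and 22871 to 38820 in shoots, and 3 root markers (PYK10, EXPA7 and EXPA18) summed to 3120 to 4106 in roots and 431 to 2046 in shoots. All 12 were without overlap between the tissues. The arrays had been scaled to one trimmed mean, and within a tissue their medians lay within 1.10 times of each other. The 4 early shoot arrays stood apart in one way that touches every member. The log2 signals of 0.5 h replicate 1 correlated best with 1 h replicate 2 (r = 0.979), and those of 0.5 h replicate 2 with 1 h replicate 1 (r = 0.980), each across 22746 probe sets, which are not independent. With their own replicates these arrays reached r = 0.961 at 0.5 h and 0.963 at 1 h. All other arrays correlated best with their own replicate. The 0.5 h and 1 h groups of shoots were therefore not treated as separate times, and the rule's mean covers both. Whether the time labels of these arrays were exchanged was not tested, and values given below for 0.5 h and 1 h in shoots follow the labels.

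Over the 260 members, the median signal in shoots was 46.1 at 0.25 h, 162 at 0.5 h, 157 at 1 h, 39.9 at 3 h, 39.6 at 6 h, 48.7 at 12 h and lastly 43.1 at 24 h. The early mean was a median of 2.83 times the higher of the 2 other means that the rule used, a quantity called the peak ratio below, with quartiles of 2.36 and 3.61 and a range of 2.01 to 17.9. For 18 members both other means lay at the floor, and for 38 members 1 of them did, so the floor sets part of those ratios. In the roots the same members had medians of 143 at 0.25 h, 213 at 0.5 h, 184 at 1 h, 107 at 3 h, 94.1 at 6 h, 80.8 at 12 h and lastly 79.7 at 24 h. The roots thus also had their highest medians at 0.5 h and 1 h, on a higher base.

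**Figure D1:**
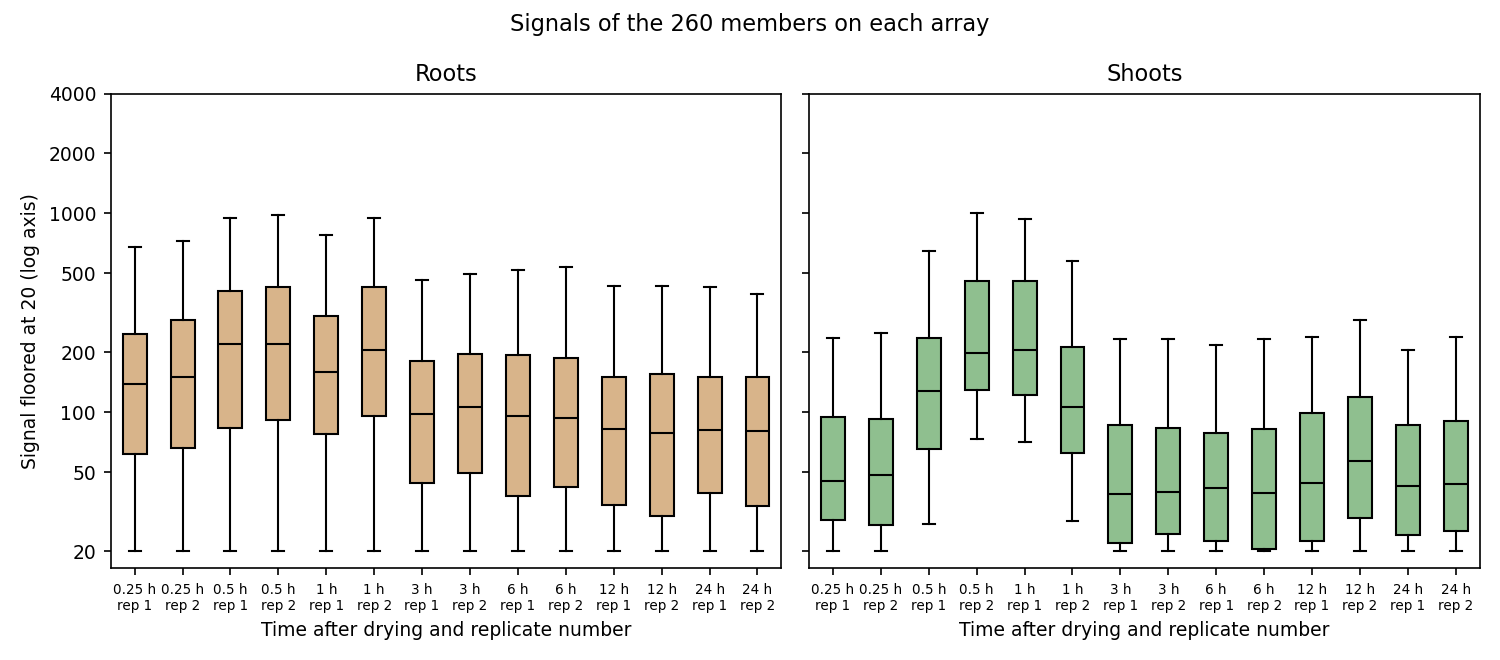
Signals of the 260 members on each array, roots left and shoots right, with signals floored at 20 on a log axis. Boxes give the quartiles and median over members and whiskers the 5th and 95th percentiles; the median in shoots is above 100 only on the 4 arrays of 0.5 h and 1 h, and the root medians are highest on the arrays of 0.5 h and 1 h.

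Members differed in how they used the 4 early shoot arrays. In 131 members (50.4%) the mean of 0.5 h replicate 2 and 1 h replicate 1 was at least 2 times that of 0.5 h replicate 1 and 1 h replicate 2, and in 13 (5%) the reverse held. Among the 8997 other probe sets with an early mean of 60 or more, these shares were 1.99% and 2.53%. On the higher pair alone the rule would choose 426 probe sets, on the other pair alone 129, and with each of the 4 arrays required to pass it chooses 66. All 4 early arrays stood above all arrays of 0.25 h and 3 h in 214 members (82.3%), beside 5.32% of those 8997 others. The rule used these same arrays, so this count only describes the members. What separates the 2 pairs was not tested.

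**Figure D2:**
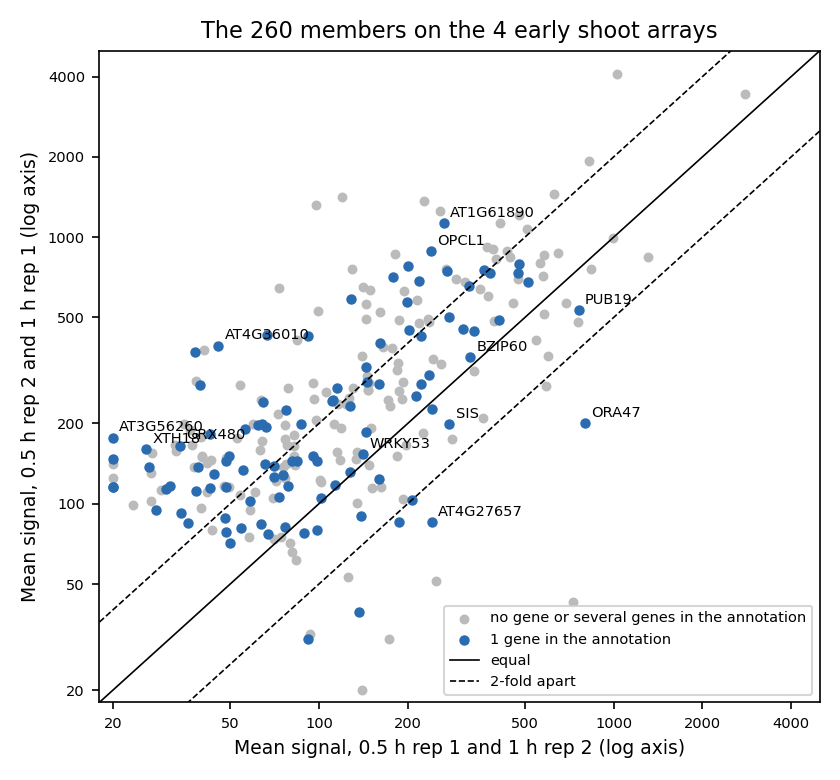
The 260 members on the 4 early shoot arrays: mean signal of 0.5 h replicate 1 and 1 h replicate 2 (x, log axis) against the mean of 0.5 h replicate 2 and 1 h replicate 1 (y, log axis), floored at 20. Points above the upper dashed line are the 131 members at least 2-fold higher on the second pair, and the 13 below the lower dashed line, ORA47 and AT4G27657 among them, are the reverse.

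The 3 least variable named members over the 4 arrays were WRKY53, AT1G07870 and AT5G37540, and the 3 most variable were AT4G36010, AT3G56260 and AT5G26270. AT4G36010, a thaumatin family protein, had 39 and 385 at 0.5 h and 399 and 52.1 at 1 h. AT3G56260 likewise had 10.8 and 163 at 0.5 h and 190.4 and 19.2 at 1 h. Both rested on the same 2 arrays. AT5G26270 passed through a single array, with 677 at 1 h replicate 1 against 40.6 on its replicate, and it reached 555 on 1 array of 6 h and 705 on 1 of 24 h.

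Near the limits, membership was a matter of small differences. The named members just inside the limit on the early mean were AT4G27654, AT1G61360 and AT5G40540, at 60.3, 60.5 and 61.2, and the nearest outside were AT1G23200, AT1G24140 and AT5G58160, at 58.5, 58.4 and 57.2. For the ratio to 0.25 h, AT3G17030 (2.01), AT1G69840 (2.03) and AT4G39840 (2.06) lay inside, and AT5G60680 (1.98), AT1G23710 (1.97) and AT4G24160 (1.92) outside. For the ratio to 3 h, AT4G38810 (2.07), AT1G72900 (2.09) and GID1B (2.12) lay inside, and AT3G53960 (just under the limit), AT2G36220 (1.98) and AT1G78210 (1.94) outside.

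Of the 101 named genes, 50 could be placed in 11 groups by a well-known role, and 51 were not placed. The members named only for their role were chosen after their values were seen. The 6 transcription factor genes had peak ratios of 2.73 to 6.08. ORA47, an AP2/ERF factor of the jasmonate response, had signals in shoots of 105 and 91.9 at 0.25 h, 764 and 194 at 0.5 h, 208 and 839 at 1 h, 36 and 42 at 3 h, and between 16.2 and 43.1 on the 6 later arrays. Its 2 highest arrays carried different time labels, 0.5 h replicate 1 and 1 h replicate 2, and all 4 early arrays lay above the others. A further 3 relatives in the DREB A-6 subgroup of the same factor family were members, out of 6 measured, in a list added after values were seen. Of these, AT1G64380 had 11 and 10.4 at 0.25 h, 102 and 142 at 0.5 h, 148 and 94.6 at 1 h, 13.8 and 10.9 at 3 h, and between 12.9 and 24.6 on the 6 later arrays. AT4G28140 was high on 1 pair of arrays only, with 18.2 and 139 at 0.5 h and 156 and 15.9 at 1 h. AT2G22200 had the lower values of 68.4 and 88.3 at 0.5 h and 80.3 and 59.2 at 1 h.

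WRKY53, a factor known from leaf senescence and defence, had 37.2 and 38.8 at 0.25 h, 152 and 158 at 0.5 h, 148 and 130.0 at 1 h, 11.1 and 6.65 at 3 h, and between 9.11 and 43.4 on the 6 later arrays. All 4 early arrays agreed closely and did not overlap the others. It was 1 member among 7 measured WRKY genes, 4 of which had an early mean of 60 or more. BZIP60, which drives the unfolded protein response of the endoplasmic reticulum, had 90.9 and 91.8 at 0.25 h, 357 and 376 at 0.5 h, 332 and 296 at 1 h, 86.1 and 88.9 at 3 h, and between 82 and 116 on the 6 later arrays. Its early signals were also tight, and it was the only 1 of 22 measured bZIP genes, 8 of them with an early mean of 60 or more, to meet the rule.

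Among 4 members tied to calcium, CML38, a calmodulin-like calcium sensor, had 51.6 and 26.3 at 0.25 h, 65.9 and 243 at 0.5 h, 239 and 63.1 at 1 h, 12.3 and 13.2 at 3 h, and between 0.664 and 18.3 on the 6 later arrays. AT5G66650, of the mitochondrial calcium uniporter family, had 88.7 and 144 at 0.5 h and 146 and 80.5 at 1 h, against 31.9 and 36.7 at 0.25 h. CML38 was high on the pair of arrays that most members shared, and AT5G66650 was higher there by less than 2-fold. The 10 protein kinase members had peak ratios of 2.10 to 3.72, and 6 of them belonged to the 131 with the shared pair. AT3G09830, a receptor-like cytoplasmic kinase, had 115 and 282 at 0.5 h and 203 and 107 at 1 h, against 49.3 and 61.6 at 3 h. PTI1-4, another kinase of that kind, had 277 and 559 at 0.5 h and 347 and 339.9 at 1 h, against 95.1 and 118. AT3G62260, a protein phosphatase of the PP2C family, had 175 and 110.4 at 0.5 h and 137 and 144 at 1 h, against 32.5 and 32.

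Of the 5 ubiquitin ligase members, which mark proteins for degradation, none showed either 2-fold difference between the pairs of early arrays. PUB19, a U-box ligase known to act in abscisic acid and drought responses, had 32.4 and 32.4 at 0.25 h, 774 and 444 at 0.5 h, 617 and 746 at 1 h, 41.2 and 42.6 at 3 h, and between 20.5 and 47.4 on the 6 later arrays. Its peak ratio of 15.4 was the highest of the named members, and the 4 early arrays lay far above all others. PUB24, a U-box ligase of defence signalling, had 28 and 23.6 at 0.25 h, 86.8 and 87 at 0.5 h, 77 and 66.2 at 1 h, 26.1 and 22.5 at 3 h, and between 30.1 and 68.8 on the 6 later arrays. It was the second of 9 measured U-box genes to meet the rule. AT1G20823, a RING-type ligase, had 200.2 and 258 at 0.5 h and 304 and 119.8 at 1 h, against 23.5 and 33.6 at 3 h.

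The 11 members of the cell wall and apoplast included XTH18 and XTH19, enzymes that cut and rejoin xyloglucan, out of 10 measured XTH genes. XTH18 had 13.7 and 14.1 at 0.25 h, 21 and 187 at 0.5 h, 134 and 30.8 at 1 h, 9.61 and 1.80 at 3 h, and between 0.648 and 6.90 on the 6 later arrays. XTH19 had 21.4 and 43.8 at 0.25 h, 51.6 and 240.2 at 0.5 h, 318 and 27.6 at 1 h, 10.5 and 18 at 3 h, and between 0.173 and 14.4 on the 6 later arrays. Both were high on the shared pair of early arrays and low on the other pair. GH9C2, an endoglucanase that acts on cellulose, had 283 and 291 at 0.25 h, 516 and 667 at 0.5 h, 915 and 439 at 1 h, 195 and 208 at 3 h, and between 111 and 429 on the 6 later arrays. The 4 early arrays lay above all arrays of 0.25 h and 3 h. ATPMEPCRB, a pectin methylesterase, had 101 and 166 at 0.5 h and 134 and 88.8 at 1 h, against 17.3 and 15 at 3 h. AT4G20830, a berberine bridge enzyme-like oxidase, had 227 and 841 at 0.5 h and 721 and 173 at 1 h, against 155 and 127. The related AT4G20860 was the other member of 22 measured genes of that family, a list added after values were seen.

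In redox and hormone pathways the members were few. GRX480, a glutaredoxin that binds TGA transcription factors, had 22.5 and 12.5 at 0.25 h, 38.9 and 161 at 0.5 h, 169 and 28.4 at 1 h, 15.2 and 14.5 at 3 h, and between 16 and 57.6 on the 6 later arrays. OPCL1, a CoA ligase of jasmonate synthesis, had 88.5 and 46.1 at 0.25 h, 236 and 886 at 0.5 h, 888 and 242 at 1 h, 238 and 190.0 at 3 h, and between 105 and 154 on the 6 later arrays. Both were at least 2-fold higher on the shared pair of early arrays. GID1B, a gibberellin receptor, had 51 and 98.2 at 0.5 h and 78.4 and 45 at 1 h, close to the limit of the rule. All 4 members of transport and membranes were at least 2-fold higher on the shared pair, among them AT1G61890, a MATE transporter, with 263 and 1142 at 0.5 h and 1120.5 and 268 at 1 h.

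Among the other members with large peak ratios, SIS, a salt-induced serine-rich protein, had 34.7 and 36.6 at 0.25 h, 272 and 148 at 0.5 h, 251 and 283 at 1 h, 35.5 and 54.9 at 3 h, and between 18.5 and 112 on the 6 later arrays. It stood at 100.4 and 112 at 24 h, above the other late arrays. AT1G78070, a WD40 repeat protein, had 92.1 and 82.9 at 0.25 h, 313 and 469.8 at 0.5 h, 531 and 241 at 1 h, 90.4 and 84.5 at 3 h, and between 52.3 and 97.1 on the 6 later arrays. AT5G63130, a PB1 domain protein, had 191 and 84.6 at 0.5 h and 86.5 and 182 at 1 h, the same reverse pair as ORA47. Named for their early means, AT5G42050, a DCD domain protein, had 529 and 669 at 0.5 h and 792 and 416 at 1 h, AT1G55450 had 585 and 860.5 at 0.5 h and 495 and 442 at 1 h, and AT4G36500 had 401 and 762 at 0.5 h and 709 and 361 at 1 h.

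**Figure D3:**
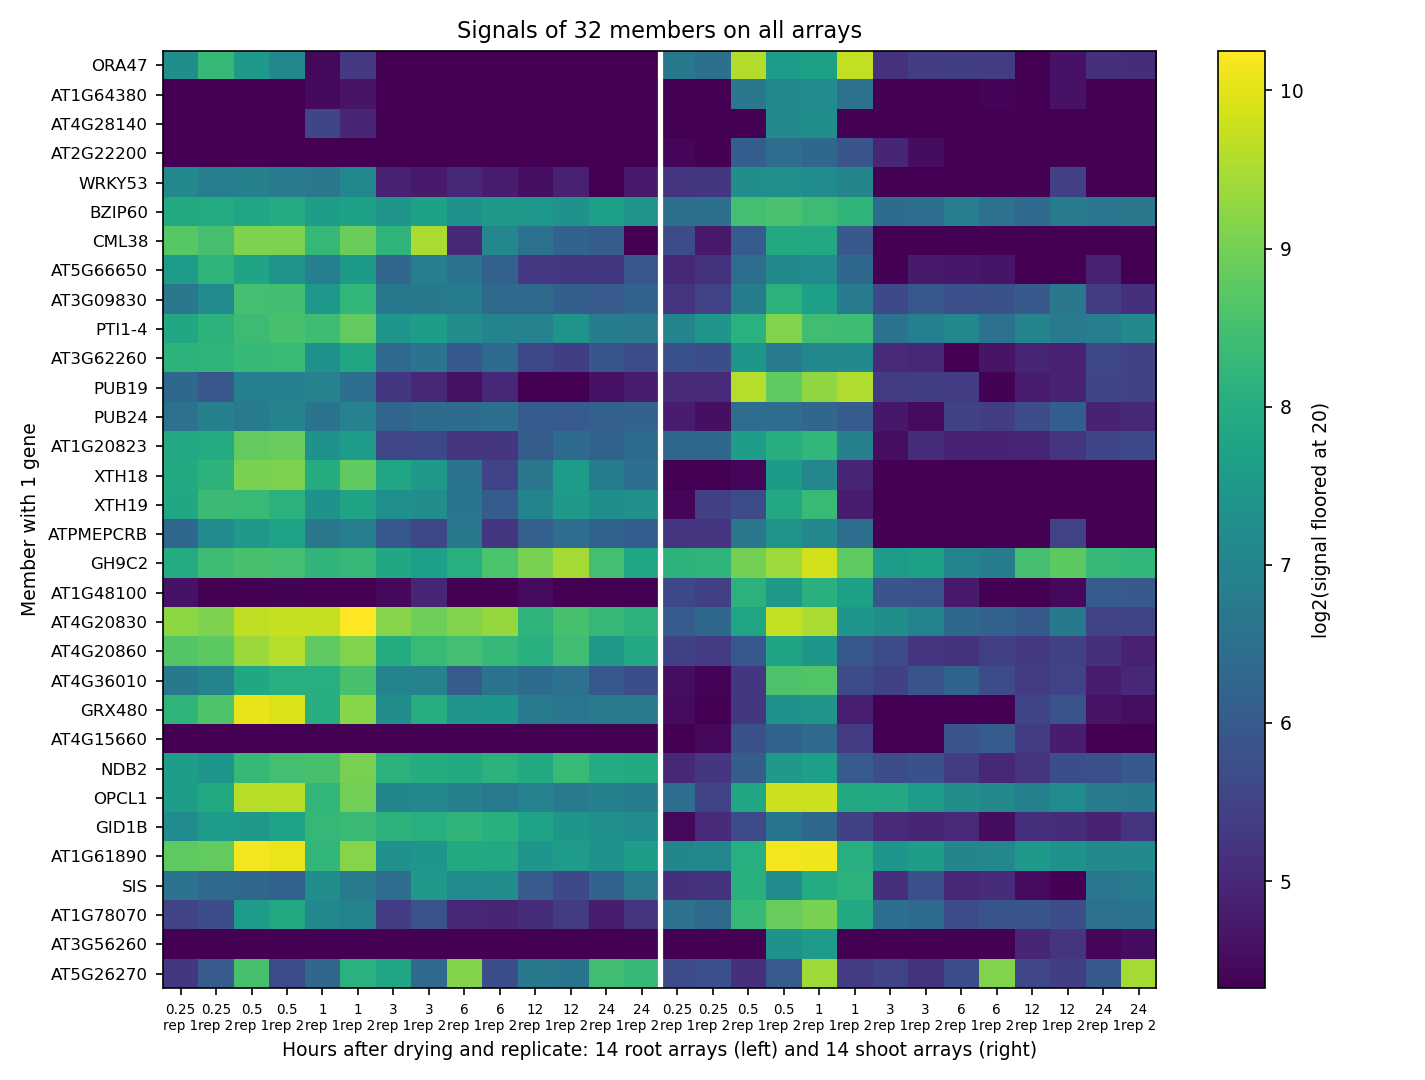
Signals of 32 members with 1 gene, ordered by role, on the 14 root arrays (left of the white line) and the 14 shoot arrays (right), as log2 of the signal floored at 20. ORA47 and PUB19 are bright in shoots on all 4 early arrays, XTH18 and AT4G36010 on 2 of them, and XTH18, GID1B, NDB2 and AT4G20830 are brighter in roots than in shoots from 6 h on.

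None of the 13 genes on the dehydration and abscisic acid list was a member, although 7 had an early mean of 60 or more. COR47, a dehydrin, had an early mean of 1064, against 296 at 0.25 h and 560 at 3 h, a peak ratio of 1.90. LTI30, another dehydrin, had 141 early, 20.1 at 0.25 h and 129 at 3 h, close to its early level. On the lists of expansins (17 genes), TBL (23), SWEET (16), UGT (51), beta-glucosidase (22), cytochrome P450 (28), glutathione transferase (14) and auxin genes (12), none met the rule either. Over the whole array the rule took 1.14% of probe sets, and 2.81% of those with an early mean of 60 or more, so nothing is read from these counts of 0. These lists were made by symbol patterns, and only genes with their own probe set in the annotation were counted. The patterns also took in genes outside the named family, among them SQN and CYP59 in the cytochrome P450 list and AT1G55460 in the dehydration list.

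After the peak the shoot members went back to low levels. Relative to the early mean, the median member had a ratio of 0.265 by 6 h, 0.301 by 12 h and 0.292 by 24 h. At these times 231, 207 and 239 of the 260 were at least 2-fold below it. These ratios share the early arrays with the rule and have no test. Relative to 0.25 h, whose mean the rule also used, the medians were 0.962, 1.02 and 0.981. At 6 h 15 members were at least 2-fold above 0.25 h (5.77%, beside 4.36% of all probe sets) and 31 at least 2-fold below (11.9%, beside 4.12%). At 12 h the counts were 28 above (10.8%, beside 3.64%) and 20 below (7.69%, beside 2.7%), and at 24 h 7 above (2.69%, beside 1.07%) and 19 below (7.31%, beside 0.914%).

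The roots show whether the same transcripts peaked in the other organ. The rule applied to the root arrays was met by 37 members (14.2%), against 0.664% of all 22746 probe sets. The highest root group mean was 60 or more in 230 members. Of these 230, 101 (43.9%) were highest at 0.5 h and 75 (32.6%) at 1 h, against 10.1% and 11.4% of the 11328 probe sets of the whole array at that level. The 0.25 h group was highest in 30 members (13%, beside 12.2% of those probe sets).

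In the test of root 0.5 h and 1 h over root 0.25 h, 40 of 259 tested members (15.4%) were higher and 9 (3.47%) lower, beside 3.5% and 4.34% of all 18183 tested probe sets. Only 1 member failed the filter on low signals. Calls are at an adjusted p of 0.05 from limma, fitted on all arrays and adjusted with Benjamini-Hochberg over all tested probe sets. The median log2 change was 0.36 over the members and -0.06 over all probe sets, and 194 members were above 0. Fitted on the root arrays alone, which leaves out the uneven early shoot arrays, the test called 87 members higher (33.6%, beside 4.84% of all). It called 13 lower (5.02%, beside 5.09%). With a floor of 20 in the fit on all arrays, 32 members were higher (12.4%, beside 4.59% of all). In the fit on all arrays the count of members called higher depended on single arrays. It fell without either array of 0.25 h, without 0.5 h replicate 2 and without 1 h replicate 2, and so did the count over all probe sets. The median log2 change of the members was then 0.372 without 0.25 h replicate 1 and 0.409 without 0.25 h replicate 2. It was 0.363 without 0.5 h replicate 2 and 0.346 without 1 h replicate 2. Fewer members, and fewer of all probe sets, were also called lower without either 0.25 h array or without 0.5 h replicate 2. The members that share a pair of early shoot arrays were also unevenly called in roots, with 22 higher and 1 lower of 130, while the 13 of the reverse pair had 1 higher and 4 lower, a difference that was not tested.

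Of the named members with no overlap between groups, AT5G54170 rose most in roots, with 192 and 261 at 0.5 h and 316 and 575 at 1 h, against 74.8 and 84.3 at 0.25 h. All 4 early arrays lay above both arrays of 0.25 h (log2 change 1.93 ± 0.35 (SE), adjusted p = 0.00225). AT1G78070 had 195 and 242 at 0.5 h and 136 and 127 at 1 h, against 46.8 and 52.9 at 0.25 h, again without overlap (1.73 ± 0.23, adjusted p = 0.000194). AT1G11960, a membrane protein, had 197 and 216 at 0.5 h and 86.4 and 117 at 1 h, against 54 and 51.3 (1.42 ± 0.31, adjusted p = 0.00888). AT3G19970 and AT5G59480 rose by 1.64 and 1.30 on the same scale. Without 0.25 h replicate 1 all of these calls but that of AT1G78070 were lost (adjusted p = 0.0516 for AT5G54170, 0.0992 for AT1G11960, 0.187 for AT3G19970 and 0.287 for AT5G59480). By role, 2 of 10 kinases rose, AT3G09830 (1.23 ± 0.31, adjusted p = 0.0186) and AT1G61360 (0.62 ± 0.19, adjusted p = 0.0492), and none of the 11 cell wall or 5 ubiquitin ligase members passed. The standard errors of this fit include the spread of the early shoot arrays. A missed call therefore does not show that a gene was unchanged in roots.

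In the test of root 3 h over root 0.5 h and 1 h, 94 of 259 members were lower (36.3%, beside 3.64% of all 18183), and 0 were higher (beside 3.6%) by limma, 3 at an unadjusted p under 0.05. The median log2 change was -0.79 over the members and 0.07 over all probe sets. On the root arrays alone 143 members were lower (55.2%, beside 4.99%) and 2 higher. The count of lower members was 53 without 3 h replicate 1 and 57 without 3 h replicate 2 (20.5% and 22%, beside 2.41% and 1.7%). Both sides of the root peak passed in 30 members, and in 218 of all 18183 probe sets. The 2 contrasts share the early root arrays, so the 2 sets of values are not independent.

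**Figure D4:**
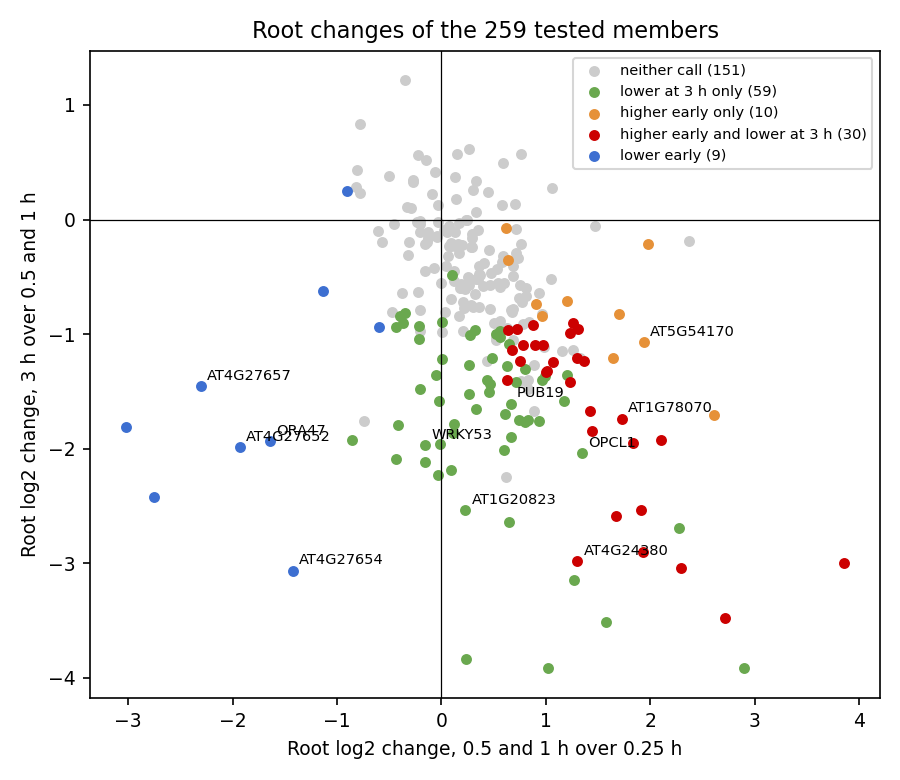
Root changes of the 259 tested members: log2 change of 0.5 h and 1 h over 0.25 h (x) against log2 change of 3 h over 0.5 h and 1 h (y), coloured by the calls at an adjusted p of 0.05. The 30 members called on both sides lie at the lower right, and the 9 called lower early, including AT4G27652, AT4G27654, AT4G27657 and ORA47, at the left.

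AT1G20823 in roots had 239 and 251 at 0.25 h, 456 and 470.5 at 0.5 h, 166 and 192 at 1 h and then 47.7 and 48.5 at 3 h. Both 3 h arrays were far below the early ones (log2 change -2.53 ± 0.23 (SE), adjusted p = 1.94e-06). AT4G24380 had 63.9 and 56.3 at 3 h, against 542 and 646 at 0.5 h and 234 and 691 at 1 h (-2.98 ± 0.32, adjusted p = 9.2e-06). AT1G14480, an ankyrin repeat protein, had 38.7 and 44, against 326 and 255 at 0.5 h and 104 and 126 at 1 h (-2.09 ± 0.19, adjusted p = 2.16e-06). OPCL1 had 133 and 136, against 788 and 787 at 0.5 h and 306 and 511 at 1 h (-2.04 ± 0.43, adjusted p = 0.00558), a call lost without 3 h replicate 2 (adjusted p = 0.0682). These 4 did not overlap between the groups, and AT1G14480, AT1G20823 and OPCL1 had lower signals on both arrays of 1 h than on either of 0.5 h.

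By role, 4 of 5 ubiquitin ligases fell in roots by 3 h, namely AT1G20823, AT5G66070, PUB19 and PUB24, beside 36.3% of members and 3.64% of all probe sets. PUB19 had 79.2 and 61.4 at 0.25 h, 118 and 118 at 0.5 h, 123 and 89.7 at 1 h and then 39 and 32 at 3 h in roots (-1.61 ± 0.23, adjusted p = 0.000255). Among transcription factors WRKY53 and ORA47 fell, 2 of 6. WRKY53 had 144 and 116 at 0.25 h, 119 and 106 at 0.5 h, 103 and 136 at 1 h and then 29 and 27.1 at 3 h (-1.97 ± 0.29, adjusted p = 0.000318), with 0.25 h about as high as the early arrays. BZIP60 had 241 and 251 at 0.25 h, 227 and 249 at 0.5 h, 196 and 209.6 at 1 h and then 171 and 208 at 3 h, without a call on either side (adjusted p = 0.466 and 0.322). Of the kinases 2 of 10 fell, AT3G09830 and PTI1-4, of the cell wall members 2 of 11, and of the transport members 3 of 4. XTH18 had 246 and 284 at 0.25 h, 537 and 538 at 0.5 h, 253 and 448 at 1 h and then 227 and 184 at 3 h (-1.05 ± 0.68, adjusted p = 0.422), and GRX480 295 and 394 at 0.25 h, 1066 and 981 at 0.5 h, 259 and 589.6 at 1 h and then 150.3 and 258 at 3 h (-1.67 ± 0.52, adjusted p = 0.0595), so both missed the threshold. Their uneven early shoot arrays enter these standard errors, so the missed calls do not show that the 2 were unchanged. The phosphatase gene AT3G62260 fell as well (-1.48 ± 0.17, adjusted p = 1.59e-05).

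A run of 3 adjacent genes, AT4G27652, AT4G27654 and AT4G27657, was lower at the early times in roots. AT4G27652 had 676 and 754 at 0.25 h, 323 and 297 at 0.5 h, 81.6 and 152 at 1 h and then 38.3 and 54.1 at 3 h in roots (log2 change of the early times -1.93 ± 0.29 (SE), adjusted p = 0.000644). In shoots it had 37.3 and 17.6 at 0.25 h, then 64.1 and 83.4 at 0.5 h and 78.5 and 44.6 at 1 h. AT4G27654 had 260.2 and 342 at 0.25 h, 250.0 and 182 at 0.5 h, 37.6 and 83.6 at 1 h and then 9.39 and 13.9 at 3 h in roots (-1.42 ± 0.36, adjusted p = 0.0196), and in shoots 13.8 and 9.53 at 0.25 h, then 34.7 and 80.6 at 0.5 h and 88.6 and 37.1 at 1 h. AT4G27657 had 86 and 131 at 0.25 h, 34.6 and 25 at 0.5 h, 8.87 and 19.7 at 1 h and then 3.65 and 9.57 at 3 h in roots (-2.31 ± 0.50, adjusted p = 0.00827), and in shoots 71.7 and 62.2 at 0.25 h, 234 and 93.6 at 0.5 h, 77.2 and 249 at 1 h, 1.32 and 8.38 at 3 h, and between 1.35 and 26.7 on the 6 later arrays. The calls of AT4G27654 and AT4G27657 were lost without either root array of 0.25 h (adjusted p = 0.0563 to 0.158). For all 3, every early root array lay below both root arrays of 0.25 h. ORA47 was lower early in roots too, with 154 and 312 at 0.25 h, 182 and 134 at 0.5 h, 21.9 and 39.8 at 1 h and then 14.4 and 19.1 at 3 h (-1.64 ± 0.47, adjusted p = 0.0396), where the groups overlapped. These 4 were the genes with a name among the 9 members called lower early in roots. The root samples of these genes were highest at the first time measured, so any rise before it was not analysed here.

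**Figure D5:**
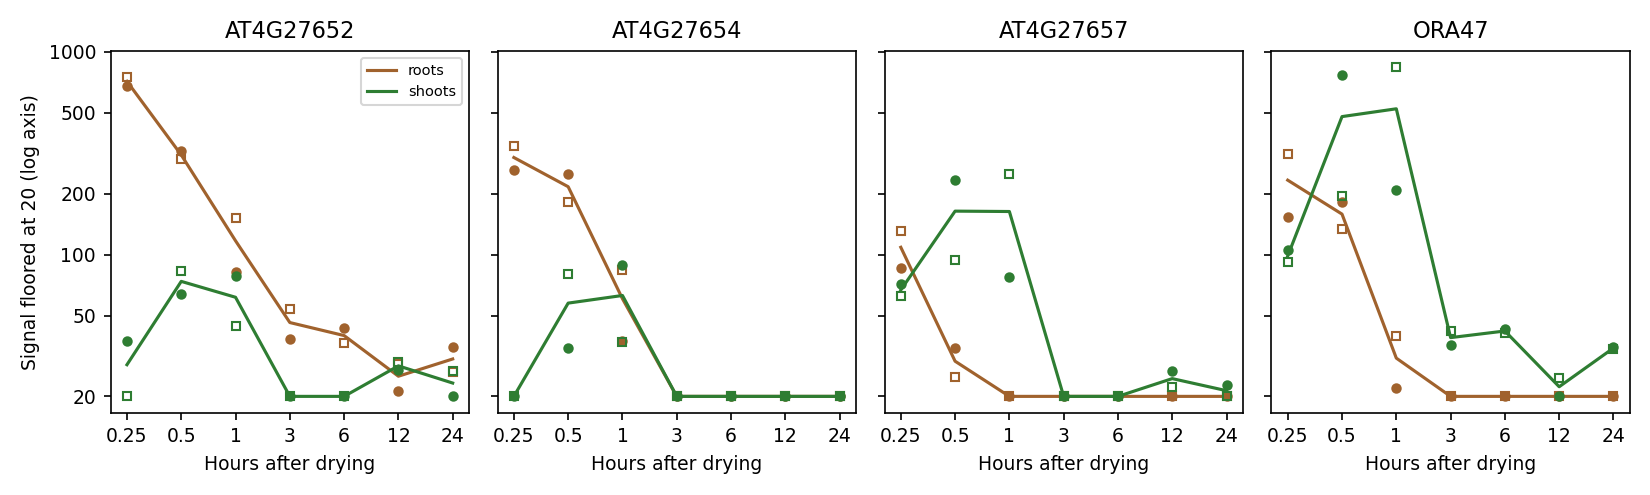
Signals of AT4G27652, AT4G27654, AT4G27657 and ORA47, floored at 20 on a log axis, against hours after drying, in roots (brown) and shoots (green). Filled circles are replicate 1, open squares replicate 2 and lines join the means; the root lines go down from 0.25 h while the shoot lines are highest at 0.5 h or 1 h.

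Neighbouring members in gene order were few. Among the 101 named genes, 5 pairs had at most 4 coding genes between them: AT4G27652 with AT4G27654, AT4G27654 with AT4G27657, XTH18 with XTH19 (each with 0 between), AT1G64380 with GH9C2 (1 between) and AT4G20830 with AT4G20860 (3 between). In roots AT4G20830 had 823 and 846 at 0.5 h and 851 and 1218 at 1 h, against 602 and 547 at 0.25 h (early log2 change 0.68 ± 0.43, adjusted p = 0.381). AT4G20860 had 662 and 777 at 0.5 h and 449 and 561 at 1 h, against 405 and 431 at 0.25 h (0.52 ± 0.36, adjusted p = 0.441), so neither passed.

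The level long after the treatment, from 6 h to 24 h, was compared between roots and shoots. Of 259 members 151 were higher in roots (58.3%, beside 50.8% of all) and 50 lower (19.3%, beside 29.3%), with a median log2 difference of 0.75 over the members and 0.28 over all. A floor of 20 lowered the second count to 32 (12.4%, beside 26.6% of all). With quantile normalization 141 were higher (54.4%, beside 46%) and 54 lower (20.8%, beside 33.7%), and the median over the members was 0.594. As deposited, the array medians were 43.1 to 46.7 in roots and 36.6 to 40.3 in shoots. How far the scaling of the arrays adds to the difference between the organs was not tested. XTH18 had between 46 and 193 in roots, against between 0.648 and 6.90 in shoots (adjusted p = 1.55e-08). XTH19 was also higher in roots (adjusted p = 2.76e-08). Neither overlapped between tissues, and all 6 late shoot signals of both lay under the floor of 20, so the folds are bounds against that floor: at least 4.91-fold higher for XTH18 and at least 6.26-fold higher for XTH19.

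By role, 9 of 10 kinases, 9 of 11 cell wall members and 3 of 4 calcium members were higher in roots, beside 58.3% of members and 50.8% of all probe sets. Of the 4 transport members 1 was higher and 1 lower, and of the 3 genes AT4G27652 to AT4G27657 likewise 1 and 1. Of the 5 ubiquitin ligases 4 were higher and PUB19 was lower. Of the 3 redox members 2 were higher and 1 lower, and of the 2 hormone members 1 was higher and 0 lower. These groups are small, and their counts were not tested. AT5G12940, a leucine-rich repeat protein, had between 216 and 332 in roots, against between 11.8 and 27.4 in shoots (3.57 ± 0.17, adjusted p = 1.5e-13). AT1G19020 had between 240.4 and 425, against between 6.85 and 58.7 (4.03 ± 0.35, adjusted p = 2.34e-09), and AT4G13180 between 659.7 and 936, against between 39.5 and 135 (3.46 ± 0.16, adjusted p = 1.6e-13). The transcription factors were split: BZIP60 (0.81 ± 0.08, adjusted p = 1.4e-08) and WRKY53 were higher in roots, and ORA47 and AT1G64380 lower. AT2G22200 had signals under 20 on all 12 arrays, so no difference is given. The lower ones among other members included AT1G78070 (-0.94 ± 0.15, adjusted p = 1.19e-05), AT2G38790 (-0.96 ± 0.11, adjusted p = 2.16e-07), AT4G12000 (-1.10 ± 0.18, adjusted p = 1.22e-05) and AT3G56260 (adjusted p = 0.00091). With a floor of 20 the calls of AT3G56260 and AT1G64380 were lost (adjusted p = 0.581 and 0.568).

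In shoots at 12 h over 6 h, 21 of 259 members were higher (8.11%, beside 7.89% of all) and 6 lower (2.32%, beside 6.41%). On the shoot arrays alone, a fit that keeps the uneven early arrays, 11 were higher (4.25%, beside 6.3% of all). The higher count was 7 without 12 h replicate 2 (2.7%, beside 3.59% of all), 12 without 6 h replicate 1 (4.63%, beside 5.27%) and 9 without 6 h replicate 2 (3.47%, beside 4.11%), so the members then lay below the share of all probe sets. It was 36 without 0.5 h replicate 1 (13.9%, beside 8.71%), and 35 or 36 without any other of the 4 early shoot arrays. The share was also below that of all probe sets with a floor of 20 (5.41%, beside 8.44%), so it is not a result about the members. The lower count was 3 without 6 h replicate 1, 6 h replicate 2, 12 h replicate 1 or 12 h replicate 2. At 12 h, 11 of 122 members with a signal level of 60 or more were at least 2-fold higher on replicate 2 (9.02%) and 0 on replicate 1, beside 0.424% and 0.0636% of other probe sets. GH9C2 had 365 and 429 at 12 h, against 125 and 111 at 6 h (log2 change 1.73 ± 0.27 (SE), adjusted p = 0.000212). AT4G13180 had 117 and 135, against 46.1 and 39.5 (1.52 ± 0.28, adjusted p = 0.00102). AT4G27657 had 26.7 and 22.2, against 1.35 and 1.77 (adjusted p = 0.00203, at least 1.22-fold higher against the floor of 20), and with a floor of 20 this call was lost (adjusted p = 0.835).

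At 24 h, the clock time nearest that of the first arrays, 22 of 259 members were higher than at 6 h (8.49%, beside 11.4% of all) and 24 lower (9.27%, beside 10.4%). Without 6 h replicate 2 there were 14 higher (5.41%, beside 6.8%) and 12 lower (4.63%, beside 6.86%). Without 24 h replicate 2 there were 15 lower (5.79%, beside 7.44%). SIS had 100.4 and 112 at 24 h, against 32 and 33.5 at 6 h (log2 change 1.64 ± 0.30 (SE), adjusted p = 0.000521). AT1G48100, a pectin lyase-like protein, had 66.3 and 62.8, against 27 and 17 (1.5 ± 0.32, adjusted p = 0.00218). Both were also higher than at 12 h, and none of the 4 members named here overlapped between 24 h and 6 h. AT4G15660, a CC-type glutaredoxin, had 9.74 and 3.03 at 24 h, against 58.9 and 66.5 at 6 h (at least 3.13-fold lower against the floor of 20, adjusted p = 0.000104). AT5G35735 had 39.6 and 39.6, against 329 and 318 (-2.97 ± 0.55, adjusted p = 0.000562).

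Against 12 h, 14 members were higher at 24 h (5.41%, beside 9.35% of all) and 36 lower (13.9%, beside 10.3%). Without 12 h replicate 2 the lower count was 15 (5.79%, beside 5.79% of all), and without 24 h replicate 1 it was 22 (8.49%, beside 7.89%). SIS had 100.4 and 112 at 24 h, against 22.5 and 18.5 at 12 h (2.27 ± 0.30, adjusted p = 2.5e-05). AT4G38550, whose probe set can share signal with other genes, had 37.5 and 28.7, against 184 and 216 (-2.53 ± 0.31, adjusted p = 9.55e-06). AT4G01870 had 39.9 and 51.2, against 242 and 208 (-2.26 ± 0.30, adjusted p = 2.36e-05). PUB24 fell too (-0.91 ± 0.16, adjusted p = 0.00042). Both arrays of 24 h lay on one side of both of 12 h in each of these 4.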

How the data were processed

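The authors deposited linear signal intensities, 1 per probe set, which MAS5 made per the submitters' processing notes, without a stated version. That method summarises probe pairs and scales each array, so a shift shared by most transcripts cannot be seen. Printed signals are as deposited, and only the rule's means and the figures used the floor of 20. The 64 AFFX controls were excluded.

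Tests used limma 3.58.1 in R 4.3.3 on log2(signal + 1.93), the pseudocount being the 10th percentile, which understates changes of dim transcripts. Probe sets above the 30th percentile of their array on both arrays of at least 1 group were tested, 18183 in all. All 14 groups entered the fit, with a trended variance prior, 14 residual degrees of freedom, two-sided tests and Benjamini-Hochberg adjustment at 0.05. On simulated data for the early root change, with 200 of 18183 probe sets changed, the fit recovered 84% where the change was 2-fold and 99% where it was 4-fold.

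Names came from the platform annotation (13513 of 22746 probe sets with 1 gene), and all 101 named members had an entry in the gene table of TAIR10.1, from which symbols and gene order were taken. Named genes were those with the largest peak ratios, early means and called changes with no overlap between groups, the least and most even early arrays, those nearest the limits, and list members. The members, gene lists and role groups were chosen with earlier results of these data known. Depth does not apply to arrays, and 2 arrays a group limit the precision. Alternatives were the pseudocount, filter, normalization, replicate block, the arrays in the fit, the rule's limits and each array left out. Promoter sequences were not analysed here.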

Additional observations from a re-analysis of the deposited data

Results flagged for a closer look

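For 17 members, with signals floored at 20, all 4 early shoot arrays lay above both shoot arrays of 0.25 h while all 4 early root arrays lay below both root arrays of 0.25 h. Only 6 of the 17 were called lower in roots. The rule favours the shoot side, and the share of all probe sets with this pattern was not counted, so nothing is read from the count of 17. Of the 17, 12 had no gene or several in the annotation, 3 of them called lower in roots, and 5 had 1 gene. The difference between the organs was not tested, because the shoot values chose the members. The root changes of those 5, as log2 change with limma's standard error and adjusted p, were -1.93 ± 0.29 for AT4G27652 (adjusted p = 0.000644), -1.42 ± 0.36 for AT4G27654 (adjusted p = 0.0196) and -2.31 ± 0.50 for AT4G27657 (adjusted p = 0.00827), 3 genes that lie next to one another. AT5G66070, a RING-type ubiquitin ligase, had -0.40 ± 0.16 (adjusted p = 0.136) and AT1G07590 had -0.81 ± 0.43 (adjusted p = 0.28), and neither passed the threshold. AT5G66070 had 290.4 and 293 at 0.5 h and 241 and 265 at 1 h in roots, against 369 and 348 at 0.25 h.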

How the results depend on the processing

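No call of a named gene changed direction under the alternatives run. The balance of counts did for 24 h over 6 h, with 22 higher and 24 lower on all arrays but 14 and 12 without 6 h replicate 2, and for 12 h over 6 h the higher share was above that of all probe sets on all arrays (8.11%, beside 7.89%) and below it without 12 h replicate 2 (2.7%, beside 3.59%), with the larger pseudocount (6.56%, beside 8.13%), with a floor of 20 (5.41%, beside 8.44%) and on the shoot arrays alone (4.25%, beside 6.3%). The rule gave 113 members with limits of 3 times on both sides and 66 with each of the 4 early arrays required to pass. With early pairs chosen after seeing the data it gave 129 (0.5 h replicate 1 with 1 h replicate 2) and 426 (0.5 h replicate 2 with 1 h replicate 1), and 211 to 330 with 1 array left out. With 1 array left out, the members called higher and lower were 7 to 58 and 3 to 11 for the early root change, 0 to 1 and 53 to 117 for the root change after it, 7 to 36 and 3 to 8 for shoots at 12 h over 6 h, 14 to 30 and 12 to 31 for 24 h over 6 h, 10 to 21 and 15 to 45 for 24 h over 12 h, and 143 to 159 and 42 to 52 for roots over shoots. Where an array was left out, the remaining one was assumed to vary as other groups do. Fits on the arrays of 1 tissue gave 87 higher in the early root change (33.6%, beside 4.84% of all). They gave 143 lower (55.2%, beside 4.99%) and 2 higher (0.772%, beside 4.88%) after it, and 11 higher for 12 h over 6 h (4.25%, beside 6.3%). A floor of 20 gave 32 lower for roots over shoots (12.4%, beside 26.6% of all) and 32 higher in the early root change (12.4%, beside 4.59%). Among the 66 members whose 4 early arrays each passed, an alternative chosen after seeing the data that leaves fewer members, the higher and lower counts were 14 and 1, 0 and 38, 6 and 3, 10 and 10, 7 and 17 (24 h over 12 h), and 42 and 16. These calls are from the fit on all arrays, whose shares of all probe sets are given with each test above. Of the alternatives for named genes, 1549 stayed on the same side of the threshold and 73 lost the call, AT3G60420 in 24 h over 12 h most often (22 times). AT3G62260, AT5G37540 and AT2G38640 in 24 h over 12 h, AT5G40540 and AT1G43910 in 12 h over 6 h, and CML38 in 24 h over 6 h also lost calls without single arrays of those times. Many of the alternatives left out an array outside the groups compared. This leaves the estimate unchanged and moves only the shared spread, so the 1549 does not measure how firm the calls are.

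The replicate numbers do not pair the samples: correlations of replicate differences between groups were between -0.584 and 0.163. With the replicate block the counts of higher and lower members were 38 and 9, 0 and 90, 21 and 6, 20 and 24, 14 and 34, and 151 and 49 in the order early root change, root change after it, 12 h over 6 h, 24 h over 6 h, 24 h over 12 h, and roots over shoots. In the same order the shares of all probe sets were 3.38% and 4.14%, 3.33% and 3.5%, 7.63% and 6.3%, 11.1% and 10.3%, 9.23% and 10.1%, and 50.7% and 29.3%. Values near the lower end of the signal have no stated background, which limits dim members such as AT4G27657.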

Other observations

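Besides the early shoot arrays, members were uneven between replicates of roots at 1 h, where 27 of 219 with a signal level of 60 or more were at least 2-fold higher on replicate 2 (12.3%) and 2 on replicate 1, beside 1.28% and 0.569% of other probe sets. AT2G24600, an ankyrin repeat protein named after its values were seen, had 306 and 487 at 1 h and 399 and 405 at 0.5 h in roots. AT5G26270 was high on single arrays of both tissues, with 369 and 50.8 at 0.5 h and 566 and 53.8 at 6 h in roots. The 154 members without a gene in the annotation had a median peak ratio of 2.79, and the 101 with 1 gene had 2.87. Of these, 27 and 13 were called higher in the early root change, and 59 and 34 lower after it, beside 3.5% and 3.64% of all tested probe sets. The largest peak ratio of all, 17.9, belonged to a probe set with no gene in the annotation.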
